A study of Mus musculus with 51 samples.

Results

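Histone deacetylases were followed through the reprogramming of mouse embryonic fibroblasts, with the arrays of cells given a histone deacetylase inhibitor (HDACi) at the centre. The genes were the measured members named Hdac1 to Hdac8, Hdac10 and Hdac11, chosen by their annotation on the array, which makes 10 of the 16593 genes that the array names. Hdac1, Hdac2, Hdac3 and Hdac8 form class I, Hdac4, Hdac5 and Hdac7 class IIa, Hdac6 and Hdac10 class IIb, and Hdac11 is the single class IV enzyme. Each gene was read from its brightest probe over all arrays. Hdac5 had 3 probes, Hdac6 had 2 and the other members had 1 each.

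Histone deacetylases remove acetyl groups from lysines of histones and other proteins, and removal from histones generally goes with compact, less transcribed chromatin. Class I enzymes work in the nucleus, mostly inside the Sin3, NuRD, CoREST and NCoR corepressor complexes. Class IIa enzymes have little deacetylase activity of their own, bind MEF2 transcription factors, and leave the nucleus on 14-3-3 proteins once salt-inducible, calmodulin-dependent or protein kinase D enzymes phosphorylate them. Inhibitors of these enzymes are known to raise the efficiency with which fibroblasts are reprogrammed.

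The study measured RNA on 51 Illumina MouseRef-8 bead arrays, all from the strain rtTA Mouse. Fibroblasts reprogrammed with c-Myc, Oct4, Sox2 and Klf4 were kept on doxycycline, which sustains the transgenes, and grown as clonal lines. At day 16 of primary reprogramming 6 clones were labelled F-class (clones 1, 2, 6, 7, 13 and 27) and 22 C-class, each line being 1 clone measured once, and clone 1 was measured again at day 30. The 2 fibroblast arrays were a Primary MEF culture (the parental fibroblasts, replicate 1) and day 0 of the secondary course (secondary fibroblasts, 2MEF, of line 1B, replicate 2). Single arrays of that course covered days 2, 5, 8, 11, 16 and 18, the last 2 labelled F-class. The pluripotent references were 2 dox-independent iPSC arrays (1B 2° and 1B 1°) and 2 embryonic stem cell (ESC) arrays. The perturbation arrays were Tet-Myc line1 and line2 on doxycycline and after 48 h off it, and HDACi arrays of F-class cells taken at 0, 24 and 48 h, in replicates 1 and 2. The labels name neither the inhibitor and its dose nor the clone that received it, and they do not say how clones were assigned to a class. No array is labelled as untreated at 24 or 48 h. Changes over the HDACi hours therefore cannot be told apart into those of the inhibitor and those of time in culture.

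Levels are background-corrected, quantile-normalized log2 intensities, given as mean ± SD. A gene was counted as detected on an array when its deposited detection p-value was under 0.05. Differences were tested with limma, in 1 fit of the fibroblast, F-class, C-class, iPSC and ESC arrays (11046 genes) and 1 fit of the HDACi and Tet-Myc arrays (10154 genes). A gene passed the test when its p-value, adjusted by Benjamini-Hochberg over all genes of the fit, was under 0.05. The arrays of the clone, fibroblast, iPSC and Tet-Myc groups came from different clones, cultures or lines. The labels do not say whether the ESC arrays, or the HDACi arrays of a time, were grown as separate cultures, so their spread may be technical. The p-values reflect just the spread between arrays, pooled over all groups of a fit. In the first fit that spread comes mostly from the clones, so it is not the spread within the fibroblast, iPSC or ESC pairs. In bulk RNA, fewer cells of a type and less RNA per cell cannot be told apart.

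The defining markers of each labelled cell type were present, and some arrays carried markers of other types too. All 6 pluripotency markers were detected on both iPSC and both ESC arrays, and all 8 fibroblast markers on both fibroblast arrays. ESC replicate 1 carried 3 of 5 macrophage markers and had a macrophage list mean of 8.43, against 5.28 in ESC replicate 2, and its fibroblast list mean was 9.00 against 6.93. Both iPSC arrays detected 7 of the 8 fibroblast markers, with list means of 8.32 and 8.12. Fibroblast replicate 2 had a macrophage mean of 7.12 against 5.35 in replicate 1. The part of these transcripts in the results below was not tested. The arrays of primary clones, the Primary MEF and ESC replicate 1 were deposited with 1 decimal and all others with more, so levels set side by side across these 2 forms may also reflect how the arrays were run. A fit that adjusts for this number format, which only the fibroblast and ESC pairs inform, is given beside each call that it ended.

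Over 48 h of HDACi the class IIa genes Hdac4 and Hdac5 and the class IV gene Hdac11 fell, and no class I gene passed the test. No member passed the test in either direction at 24 h against 0 h by limma, 0 members did so at an unadjusted p under 0.05, and 2.09% of all genes passed (0.965% higher and 1.12% lower). Between 24 h and 48 h 2 of 10 members fell, Hdac5 and Hdac10, against 16.6% of all genes (8.41% higher and 8.21% lower). At 48 h against 0 h 3 of 10 fell, Hdac4, Hdac5 and Hdac11, and 0 rose, against 28.6% of all genes (14.2% higher and 14.5% lower), so the number of members that changed was near the background. The median change of the 10 members was -0.16 on the log2 scale at 48 h, and that of all genes was 0.02.

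Hdac1, a catalytic subunit of the Sin3, NuRD and CoREST complexes, stood at 11.83 and 11.94 at 0 h, at 11.69 and 11.95 at 24 h and at 11.62 and 11.90 at 48 h. Its 48 h and 0 h arrays overlapped, and the change of -0.13 had a 95% interval from -0.52 to 0.26. Hdac2, its close paralogue in the same complexes, read 12.92 and 13.04 at 0 h and 12.96 and 12.73 at 48 h, a change of -0.13 with an interval from -0.52 to 0.26. Hdac3, the catalytic subunit of NCoR and SMRT complexes, went from 11.75 and 11.73 through 11.62 and 11.65 to 11.56 and 11.56. Those Hdac3 arrays did not overlap between 0 h and 48 h, but the change of -0.18 (interval -0.47 to 0.11) did not pass the test (adjusted p = 0.322). Hdac8, a class I enzyme that works outside these complexes and deacetylates cohesin, read 7.13 and 7.36 at 0 h and 7.04 and 7.48 at 48 h, a change of 0.01 (interval -0.45 to 0.48). For each of the 4 class I genes the interval excluded a change of 2-fold in either direction.

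Hdac4, a class IIa enzyme that represses MEF2 targets, read 8.57 and 8.50 at 0 h, 8.22 and 8.18 at 24 h and 7.70 and 7.38 at 48 h. Every later array lay below every earlier one. Its level fell 1.99-fold over 48 h (log2 fold change -0.99, SE 0.23, limma adjusted p = 0.0171), while the step from 24 h to 48 h alone did not pass (-0.66, adjusted p = 0.0984), except with the replicate number as a block (adjusted p = 0.0448).

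Hdac5, the class IIa relative of Hdac4, held at 10.86 and 10.87 at 0 h and at 10.87 and 10.96 at 24 h, and then read 9.86 and 9.79. The 48 h arrays stood apart from all 4 earlier ones. The level fell 2.12-fold from 24 h to 48 h (-1.09, SE 0.31, adjusted p = 0.0493) and 2.06-fold over the whole course (-1.04, adjusted p = 0.0391). Its other probes moved alike, by -1.07 with an adjusted p of 0.0184 and by -0.87 with an adjusted p of 0.181, which did not pass. The Hdac5 call over the whole course ended with no detection filter and with the mean of all probes.

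Hdac11, the class IV enzyme, which also removes fatty-acyl groups from proteins, read 6.90 and 6.89 at 0 h and 6.57 and 6.72 at 24 h. At 48 h it was at 4.84 and 5.29 and was detected on neither array. It was at least 2.70-fold lower at 48 h than at 0 h (adjusted p = 0.0375), a bound set by the lowest signal of a detected probe on the 48 h arrays. Without background correction the Hdac11 change was -0.80 (adjusted p = 0.0788) and with the authors' scaled values -0.79 (adjusted p = 0.0809), smaller than that bound, and in both, as with no detection filter (adjusted p = 0.0575), the call ended. Against 24 h the difference did not pass the test (adjusted p = 0.0860), except with the replicate number as a block (adjusted p = 0.00465).

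Hdac10, a class IIb enzyme that acts mainly on polyamines, read 6.73 and 6.78 at 0 h, 7.04 and 7.14 at 24 h and 5.93 and 6.21 at 48 h. The 24 h arrays were the highest and the 48 h arrays the lowest, with no overlap. The fall from 24 h to 48 h was 2.02-fold (-1.02, SE 0.26, adjusted p = 0.0352), and the difference from 0 h did not pass (-0.69, adjusted p = 0.0841). Without background correction the Hdac10 fall from 24 h to 48 h was -0.51 and did not pass (limma adjusted p = 0.0751). The test of whether the second day's change differed from the first day's gave -1.34 for Hdac10, -1.33 for Hdac11 and -1.13 for Hdac5, with adjusted p of 0.167, 0.533 and 0.318. None of the 10 members passed that test by limma, 1 of them (Hdac10) had an unadjusted p under 0.05, and 2.93% of all genes passed (1.97% higher and 0.965% lower).

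Hdac6, a class IIb enzyme of the cytoplasm that deacetylates tubulin, and Hdac7, a class IIa enzyme known from endothelial cells and thymocytes, read higher at 48 h than at 0 h without passing the test. Hdac6 went from 8.77 and 9.20 to 9.39 and 9.58 (0.50, interval -0.22 to 1.23, adjusted p = 0.272). Hdac7 went from 5.39, not detected, and 5.56 to 5.97 and 6.42, both detected (0.71, interval -0.25 to 1.68, adjusted p = 0.239). Both intervals still hold a change of 2-fold. Their width comes from the HDACi and Tet-Myc arrays fitted together, not from the HDACi arrays alone. The SD of Hdac7 was 0.86 and 0.58 in the Tet-Myc groups and 0.05 to 0.32 in the HDACi groups. That of Hdac6 was 0.16 and 0.69 against 0.11 to 0.30.

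**Figure D1:**
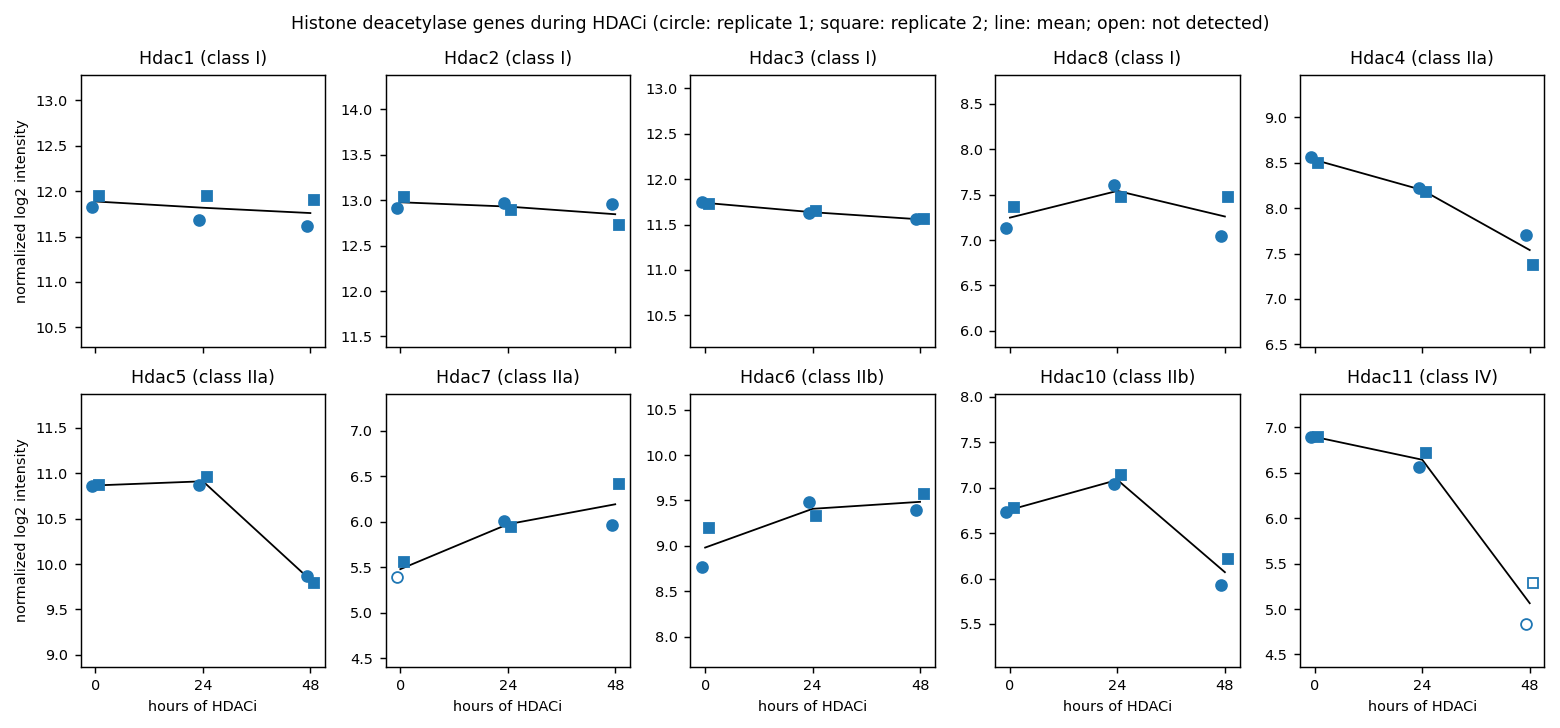
Normalized log2 intensity of the 10 genes against hours of HDACi, with replicate 1 as circles, replicate 2 as squares, open symbols where the gene was not detected and a line through the means of 2 arrays; every panel spans the same range on the log2 scale. Hdac4, Hdac5, Hdac10 and Hdac11 are lowest on both 48 h arrays, whereas Hdac1 and Hdac2 overlap between 0 h and 48 h.

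These calls rest on 2 arrays a group. Leaving out any 1 array of the comparison ended the Hdac5, Hdac10 and Hdac11 calls, and the Hdac4 call was kept only without the 48 h array of replicate 1 (adjusted p = 0.0441), while the fitted changes over 48 h stayed between -1.15 and -0.83 for Hdac4, -1.08 and -1.002 for Hdac5 and -2.06 and -1.60 for Hdac11. In a fit of the 2 groups compared alone, which leaves out the 24 h and Tet-Myc arrays, 5 members passed at 48 h against 0 h: Hdac4, Hdac5, Hdac10 and Hdac11 lower and Hdac7 higher (adjusted p = 0.0232), with 4747 genes called in place of 2907.

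Marker genes of the cells moved over the same hours. The mean of 6 pluripotency markers was 10.57 and 8.68 at 0 h, 10.55 and 10.61 at 24 h and 12.29 and 12.18 at 48 h. The mean of 5 epithelial markers was 9.05 and 7.61 at 0 h, 9.66 and 9.73 at 24 h and 11.47 and 11.61 at 48 h. Of 5 macrophage markers at most 1 was detected on any HDACi array, and the fibroblast mean stayed between 5.55 and 6.28. The part of these shifts in the changes of the deacetylase genes was not tested.

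The promoters of the 3 genes that passed the test as lower at 48 h against 0 h are shown, although their levels at 24 h differed in course. The bases are those that RefSeq (build GRCm38.p6) lists before the annotated start, 5′ to 3′ on the gene's strand, and capitals mark a CCAAT box (CCAAT, or ATTGG on the other strand), a GC box (GGGCGG or CCGCCC) or an E-box (CACGTG on both strands). No marked motif overlaps another.
Hdac4: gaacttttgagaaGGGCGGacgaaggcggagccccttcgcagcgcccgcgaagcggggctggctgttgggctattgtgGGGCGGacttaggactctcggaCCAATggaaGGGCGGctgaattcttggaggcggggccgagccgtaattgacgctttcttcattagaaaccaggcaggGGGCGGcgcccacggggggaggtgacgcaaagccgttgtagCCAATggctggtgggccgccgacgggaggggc
Hdac5: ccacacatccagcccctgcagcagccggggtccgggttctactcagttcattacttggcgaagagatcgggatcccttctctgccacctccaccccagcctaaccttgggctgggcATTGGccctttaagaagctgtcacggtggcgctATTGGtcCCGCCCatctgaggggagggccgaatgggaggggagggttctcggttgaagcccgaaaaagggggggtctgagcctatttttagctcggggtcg
Hdac11: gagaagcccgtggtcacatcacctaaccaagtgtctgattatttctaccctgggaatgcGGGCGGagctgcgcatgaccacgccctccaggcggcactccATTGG
The Hdac4 bases lie at chr1:92180342-92180591 on the minus strand, inside the span of the gene and 15361 bases from its outermost annotated start. The Hdac5 bases lie at chr11:102230173-102230422 on the minus strand and the Hdac11 bases at chr6:91156565-91156669 on the plus strand, where 105 bases of the RefSeq window precede the outermost start. The printed stretches hold 2 CCAAT boxes and 4 GC boxes for Hdac4, 2 and 1 for Hdac5, and 1 and 1 for Hdac11. Over 32817 RefSeq windows of 300 bases around a start, 37.4% hold a CCAAT box, 35.6% a GC box and 7.15% an E-box, so these are common motifs, and a match is only a match of letters. The RefSeq table held 10 windows for 7 of the 10 members. The printed stretches are shorter than these windows. Over the full 300 bases Hdac4 has 2 CCAAT boxes and 5 GC boxes, Hdac5 has 2 and 1 with 1 E-box, and Hdac11 has 1 and 1. Of the other members' windows, that of Hdac6 holds 2 CCAAT boxes and 5 GC boxes, that of Hdac8 2 CCAAT boxes and 0 GC boxes, and that of Hdac2 0 and 1. The 4 windows of Hdac7 hold 0 CCAAT boxes, with 1 GC box in 1 of them.

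At day 16 the classes of clone differed in Hdac10, Hdac5 and Hdac7. Compared with the C-class, F-class clones had 1 of the 10 members higher and 2 lower, against 24.7% of all genes, 14.1% higher and 10.6% lower, so the members' share was near the background. Hdac10 carried the clearest difference. Its lowest, median and highest levels were 7.57, 7.68 and 7.92 in the 6 F-class clones and 6.46, 7.09 and 7.37 in the 22 C-class clones, so every F-class clone lay above every C-class clone. The F-class level of Hdac10 was 1.60-fold that of the C-class (0.68 on the log2 scale, SE 0.13, limma adjusted p = 0.000277), and it passed without each F-class clone in turn.

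Hdac5 ran from 8.53 through 8.81 to 9.44 in F-class clones and from 8.44 through 9.49 to 10.22 in C-class clones, with overlap. It was 1.45-fold lower in F-class clones (-0.53, SE 0.18, adjusted p = 0.0315). Its other probes gave -0.48 and -0.45 and did not pass, and the call ended without clone 1, 2, 6 or 7 (-0.53 to -0.46).

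Hdac7 was not detected on any F-class array, where it read 4.77, 4.84 and 5.50 as lowest, median and highest, and it was detected in 10 of 22 C-class clones, where it ran from 4.72 through 5.46 to 6.47. The difference of -0.54 passed narrowly (adjusted p = 0.0472), but both groups lay at the edge of detection, the bound on the fold was under 1 and none is given. The Hdac7 call ended in 9 of 14 alternatives. Among them were the fits without clone 1, 2, 6, 7 or 13 (-0.53 to -0.50) and quantile normalization with no background correction, where the difference was -0.23. Background correction with median scaling also ended it (-0.44, limma adjusted p = 0.0712). Clone 27 was the highest F-class array.

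The remaining members did not pass between the classes. Hdac4 was at 8.05 ± 0.30 (SD, n = 6) and 8.46 ± 0.38 (SD, n = 22), a difference of -0.41 with an adjusted p of 0.0607, and Hdac6 at 7.44 ± 0.34 and 7.82 ± 0.33, a difference of -0.38 with an adjusted p of 0.0617. Class I genes differed by no more than 0.15 on the log2 scale in either direction, with intervals that lay within -0.36 and 0.32. Hdac11 was detected in 0 of 6 F-class and 2 of 22 C-class clones.

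**Figure D2:**
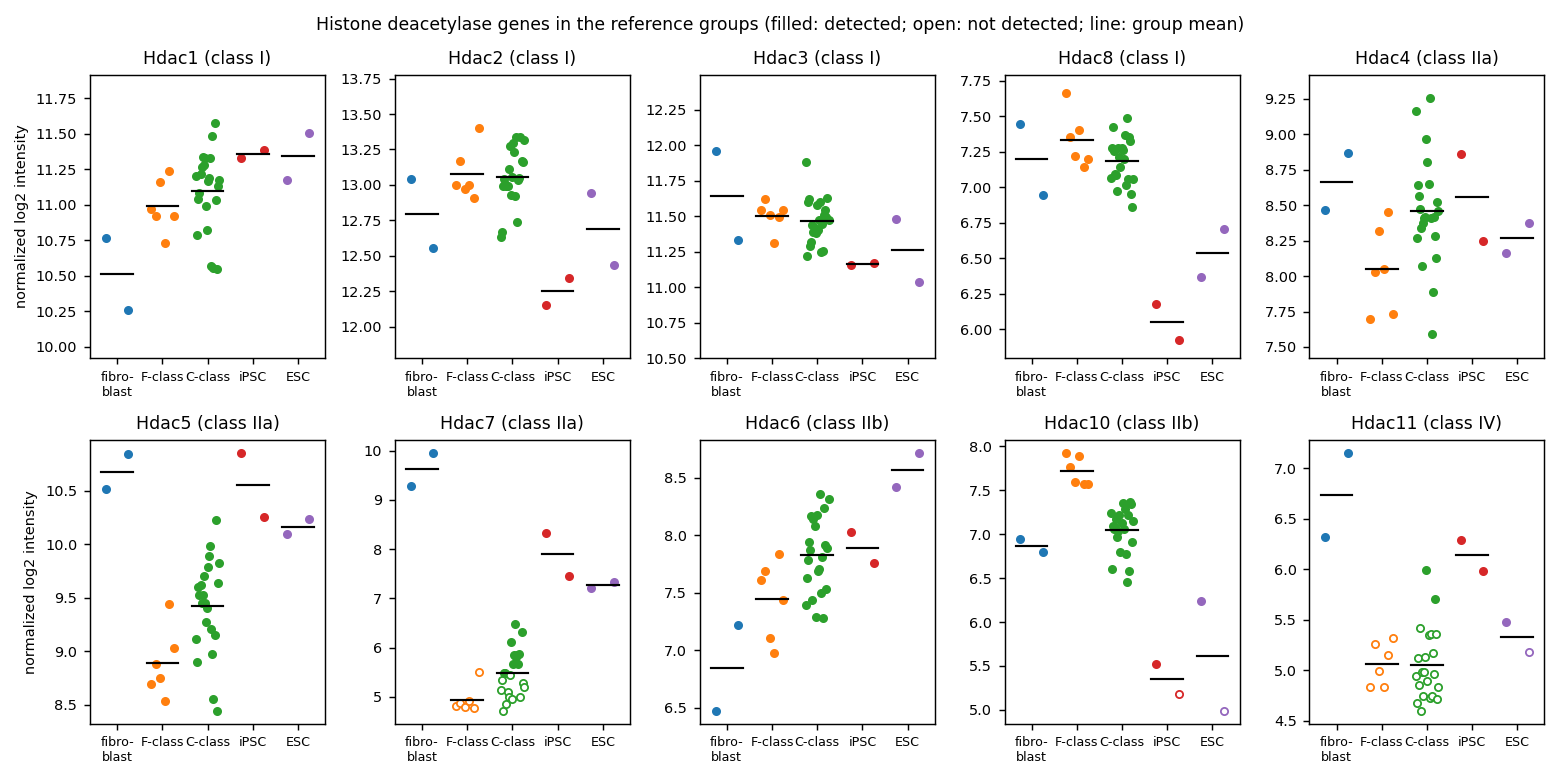
Normalized log2 intensity of the 10 genes in fibroblast (n = 2), F-class (n = 6), C-class (n = 22), iPSC (n = 2) and ESC (n = 2) arrays, each point 1 array, open where the gene was not detected, with a line at the group mean; panels have their own axes. Hdac7 falls from 9.28 and 9.95 in fibroblasts to the edge of detection in the clones, and Hdac10 is higher in all 6 F-class clones than in any C-class clone.

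Against fibroblasts, the class IIa genes Hdac5 and Hdac7 and the class IV gene Hdac11 were lower in both classes of clone. In F-class clones 1 of 10 members was higher and 3 were lower, against 58.7% of all genes (31.5% higher and 27.2% lower). In C-class clones 2 were higher and 3 lower, against 60% of all genes (31.6% higher and 28.5% lower). Both comparisons share the fibroblast arrays. The shares of members that passed were below those of all genes, but with only 10 members this is not read as a result about them.

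Hdac7 read 9.28 and 9.95 in fibroblasts, far above every clone. It was at least 16.0-fold lower in F-class clones (adjusted p = 8.87e-13) and 17.6-fold lower in C-class clones (-4.14, SE 0.32, adjusted p = 1.11e-12), although only 10 of 22 C-class arrays detected it. The F-class fold is a bound, and the fitted log2 change there was -4.68. The Hdac7 differences shrank when no background was corrected, to -2.90 (F-class) and -2.67 (C-class), and still passed. That F-class difference is smaller than the bound, which holds only for background-corrected levels. Hdac7 is known from endothelial cells, and of 7 endothelial markers 3 and 2 were detected in the fibroblast arrays against 3 to 4 in F-class clones, with list means of 5.96 and 5.70 against 6.50 to 6.72. Fibroblast markers had a mean of 11.31 and 11.78 in fibroblasts and of 5.94 to 6.33 in F-class clones. The part of either cell type in the Hdac7 difference was not tested.

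Hdac5 read 10.52 and 10.84 in fibroblasts, above all clones of both classes. It was 3.46-fold lower in F-class clones (-1.79, SE 0.33, adjusted p = 1.84e-05) and 2.39-fold lower in C-class clones (-1.26, adjusted p = 0.000436), and its 3 probes passed alike in F-class clones. Hdac11 read 6.32 and 7.16 in fibroblasts and was at least 2.18-fold lower in F-class clones (adjusted p = 3.04e-06), where it was detected on no array, and lower in C-class clones too (adjusted p = 4.77e-07), where 2 of 22 arrays detected it and no fold is given. Both Hdac11 calls held when no background was corrected, at -0.73 and -0.75.

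Hdac10, at 6.95 and 6.79 in fibroblasts, was 1.80-fold higher in F-class clones (0.85, adjusted p = 0.00213), but not after adjusting for number format (0.50, adjusted p = 0.0892), and in C-class clones its difference of 0.17 did not pass (adjusted p = 0.491). Hdac6, at 6.47 and 7.22 in fibroblasts, was above them by 1.97-fold in the C-class (0.98, adjusted p = 0.000818), a call that ended without the Primary MEF array (0.61). In F-class clones the Hdac6 difference of 0.60 did not pass (adjusted p = 0.0563), although the second Hdac6 probe did (1.35, adjusted p = 0.00179). Hdac1 read 10.76 and 10.26 in fibroblasts and was higher by 1.50-fold in the C-class (0.58, adjusted p = 0.0110), but this call ended without the secondary fibroblast array (0.33) and after adjusting for number format (adjusted p = 0.0572), and in F-class clones the difference of 0.48 did not pass (adjusted p = 0.0584). Hdac2, Hdac3, Hdac4 and Hdac8 did not pass in either class, but adjusted for number format Hdac3 was lower in both (-0.41 and -0.45, adjusted p = 0.0190 and 0.00599) and Hdac6 higher in F-class clones (0.86, adjusted p = 0.0185).

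**Figure D3:**
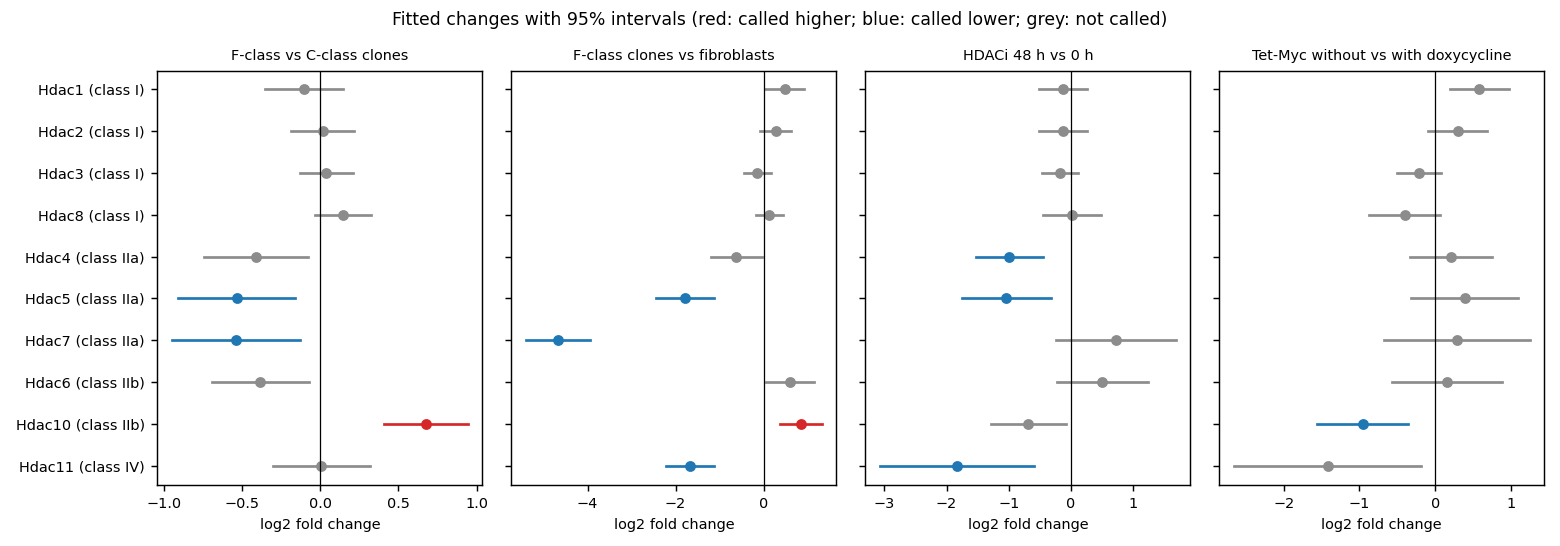
Fitted log2 fold change (points) with 95% intervals (lines) of the 10 genes in 4 comparisons, coloured red where called higher, blue where called lower and grey where not called, with a separate axis for each comparison. Class I genes were not called in any of these 4, and the Hdac7 value in F-class clones against fibroblasts, where the clones lay below detection, stands for a bound of at least 16.0-fold on background-corrected levels.

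In the pluripotent lines the order changed. Against fibroblasts, the mean of iPSC and ESC was higher for 2 of 10 members and lower for 5, against 51.7% of all genes (25.9% higher and 25.7% lower). Hdac6 was 2.61-fold higher (1.38, SE 0.28, adjusted p = 0.000131), with 8.03 and 7.76 in iPSC and 8.42 and 8.72 in ESC, but its second probe did not pass (0.57, adjusted p = 0.220). Hdac1 was 1.79-fold higher (0.84, adjusted p = 0.00271). Hdac7 was 4.11-fold lower (adjusted p = 3.28e-05), Hdac10 2.62-fold (adjusted p = 1.78e-05), Hdac11 2.01-fold (adjusted p = 0.00381), Hdac8 1.87-fold (adjusted p = 2.70e-05) and Hdac3 1.35-fold (adjusted p = 0.0199). Without background correction the Hdac10 difference was -0.61 and still passed. The Hdac3 call ended without the Primary MEF array (-0.12), without ESC replicate 2 (-0.32) or after adjusting for number format (-0.30), and those of Hdac1 and Hdac11 ended without the secondary fibroblast array.

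Clones at day 16 differed from the pluripotent lines in class II genes in both directions. Against ESC, F-class clones had 2 of 10 members higher and 3 lower, with 48% of all genes called (25.4% higher and 22.5% lower), and the same numbers stood in C-class clones, with 45.1% (22.8% and 22.3%). Against iPSC 3 were higher and 3 lower in each class, with 53.3% of all genes called for F-class (28.5% higher and 24.7% lower) and 52.5% for C-class clones (26.9% and 25.6%). Comparisons with ESC share the ESC arrays, and those with iPSC the iPSC arrays.

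Hdac7 was 8.33 and 7.45 in iPSC and 7.21 and 7.33 in ESC, above every clone. It was at least 3.15-fold lower in F-class clones than in ESC (adjusted p = 3.55e-06) and at least 4.84-fold lower than in iPSC (adjusted p = 7.37e-08). In C-class clones, where 10 of 22 arrays detected it, the fitted level was 3.46-fold lower than in ESC and 5.31-fold lower than in iPSC (adjusted p = 3.90e-05 and 3.44e-07). These fitted folds are not comparable with the F-class bounds. The fitted log2 changes from ESC and iPSC were -2.33 and -2.95 in F-class and -1.79 and -2.41 in C-class clones. Without background correction the Hdac7 differences from ESC and iPSC were -1.08 and -1.51 in F-class and -0.85 and -1.28 in C-class clones, and all passed. Fibroblast markers, whose mean, like Hdac7, was highest in fibroblasts, averaged 8.12 to 8.32 in iPSC and 6.93 to 9.00 in ESC against 5.94 to 6.33 in F-class clones, and their part in the Hdac7 difference was not tested. Hdac5 was 10.86 and 10.25 in iPSC and 10.10 and 10.24 in ESC, and it was 2.43-fold lower in F-class clones than in ESC (adjusted p = 0.00168) and 3.18-fold lower than in iPSC (adjusted p = 8.12e-05). In C-class clones Hdac5 was 1.68-fold lower than in ESC, a call that ended without either ESC array (-0.82 and -0.68) and after adjusting for number format (adjusted p = 0.181). Against iPSC the C-class call of Hdac5 (-1.13, adjusted p = 0.00178) likewise ended after that adjustment (-0.90, adjusted p = 0.226). In C-class clones the Hdac5 arrays overlapped those of ESC, and its 2 other probes, at -0.68 and -0.31, did not pass. In F-class clones every array of Hdac5 and Hdac7 lay below every fibroblast, iPSC and ESC array, although 1 of the other Hdac5 probes did not pass against ESC (-0.75, adjusted p = 0.0672).

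Hdac10 went the other way. It read 5.52 and 5.18 in iPSC and 6.24 and 4.99 in ESC, detected on 1 array of each pair, and all 28 clones lay above these 4 arrays. F-class clones were 4.30-fold higher than ESC (2.10, SE 0.23, adjusted p = 1.35e-08) and 5.17-fold higher than iPSC (2.37, adjusted p = 1.77e-09), and C-class clones 2.69-fold and 3.23-fold higher. Without background correction the Hdac10 differences from ESC and iPSC were 1.09 and 1.19 in F-class and 0.66 and 0.76 in C-class clones, and all passed. Without ESC replicate 1 the differences from ESC were 2.73 and 2.05, and without ESC replicate 2 they were 1.48 and 0.80. Adjusted for number format, those from iPSC were 1.67 and 0.99 and passed. Group means of Hdac10 therefore ran from F-class clones at 7.72 through C-class clones at 7.04, fibroblasts at 6.87 and ESC at 5.61 to iPSC at 5.35, where the neighbours C-class and fibroblasts, and ESC and iPSC, did not differ by the test (adjusted p = 0.491 and 0.643).

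Hdac8 read 6.18 and 5.92 in iPSC and 6.37 and 6.71 in ESC, below all 28 clones. It was 1.73-fold higher in F-class clones than in ESC (adjusted p = 0.000108) and 2.43-fold higher than in iPSC (adjusted p = 7.64e-08), and 1.56-fold and 2.19-fold higher in C-class clones. Without background correction the F-class difference of Hdac8 from iPSC was 0.66 and passed. Hdac2, at 12.16 and 12.34 in iPSC, was above iPSC by 1.77-fold in F-class and by 1.75-fold in C-class clones (adjusted p = 0.000231 and 8.97e-05). Neither Hdac2 call held after adjusting for number format (0.33 and 0.31, adjusted p = 0.375 and 0.419). Against ESC, whose arrays read 12.95 and 12.44, the Hdac2 differences of 0.38 and 0.37 did not pass. Without ESC replicate 1, which held the macrophage transcripts, Hdac2 and Hdac3 of F-class clones lay further above ESC. The part of those transcripts in this shift was not tested.

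Hdac6 depended on the probe. Its brighter probe put F-class clones 2.18-fold below ESC (-1.13, adjusted p = 0.000912) and did not differ by the test from iPSC (-0.45, adjusted p = 0.159). The second Hdac6 probe gave 0.26 against ESC (adjusted p = 0.585) and 1.29 against iPSC (adjusted p = 0.00329), in the opposite direction. In C-class clones the brighter probe was 1.67-fold below ESC (adjusted p = 0.0130), and the second probe was not (0.53, adjusted p = 0.185), and adjusted for number format the former did not pass either (adjusted p = 0.198). No direction for Hdac6 between clones and pluripotent lines is drawn from these probes. Hdac11 was at least 1.44-fold lower in F-class clones than in iPSC (adjusted p = 0.00131) and lower in C-class clones (adjusted p = 0.000461), and against ESC it did not pass. Neither Hdac11 call held after adjusting for number format (adjusted p = 0.175 and 0.181), and without background correction the differences were -0.43 and -0.45.

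Between iPSC and ESC no member passed by limma, 4 had an unadjusted p under 0.05, and 8.15% of all genes passed (3.68% higher and 4.47% lower). Without ESC replicate 2 Hdac10 passed, with a log2 fold change of -0.89 in iPSC against ESC.

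In the secondary course, with 1 array a day and no test, the fall of Hdac7 came late. Hdac7 read 9.95 at day 0, 9.35 at day 2, 8.80 at day 5, 9.16 at day 8, 7.22 at day 11, 6.92 at day 16 and 6.73 at day 18. The largest step lay between day 8 and day 11, and the gene was still detected at day 18. By day 18 Hdac7 was 9.37-fold below day 0, Hdac11 2.17-fold and Hdac5 2.14-fold, so 3 of 10 members had moved by 2-fold or more, all downward, against 38.6% of all genes (19.6% higher and 19% lower). At day 2 none of the 10 had, against 28.6% of all genes (14% higher and 14.6% lower). Fibroblast markers averaged 11.78 at day 0, 8.18 at day 8 and 7.16 at day 11.

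Hdac5 did not move evenly: it read 10.84 at day 0, 9.94 at day 5, 11.11 at day 8, 10.45 at day 16 and 9.75 at day 18. Hdac6 stood at 7.22 at day 0 and at 8.32 and 8.35 at days 8 and 11, then at 7.72 at day 18. Hdac1 read 10.23 at day 8 and 10.91 at day 11. On days 16 and 18, both labelled F-class, Hdac7 at 6.92 and 6.73 and Hdac11 at 6.19 and 6.04 were detected, unlike in the 6 primary F-class clones. Hdac10, at 7.37 and 7.42 on these days, lay just below the range of the primary F-class clones.

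**Figure D4:**
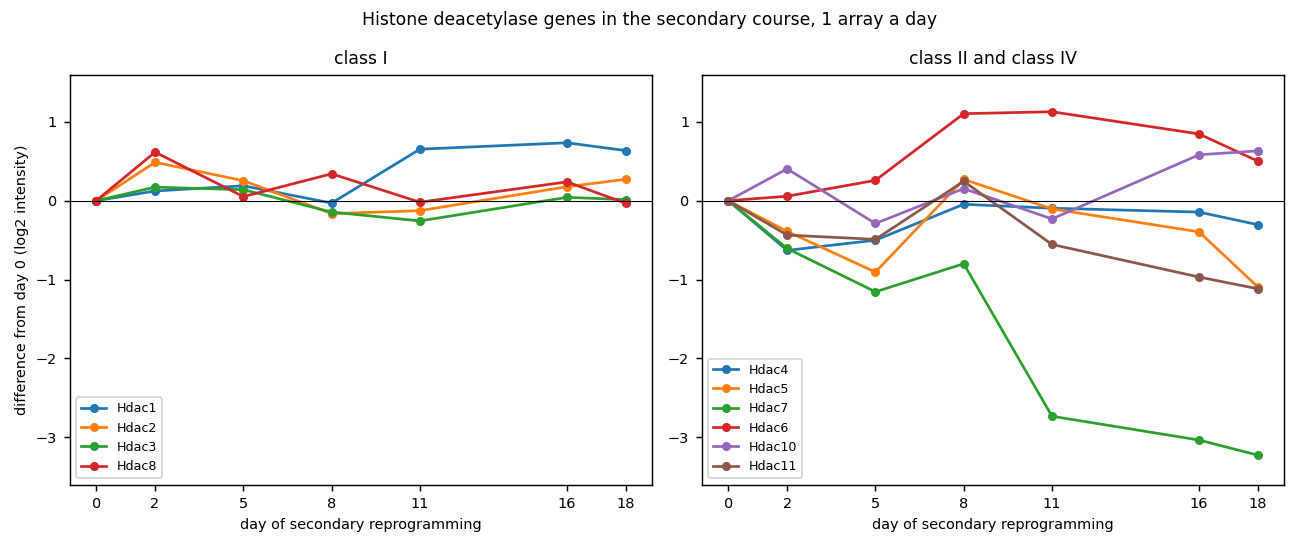
Difference in log2 intensity from day 0 against the day of secondary reprogramming, 1 array a day, with class I genes on the left and class II and class IV genes on the right. Hdac7 drops between days 8 and 11 and ends at a difference of -3.23, while Hdac1, the class I gene with the largest difference at day 18, ends at 0.64.

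Clone 1 was compared between day 16 and day 30, with 1 array at each. Of the 8 members detected on either array 0 differed by 2-fold or more, against 3.95% of all genes (1.72% higher and 2.24% lower), and Hdac7 and Hdac11 were detected on neither. The largest difference among detected members was in Hdac10, which read 7.92 at day 16 and 7.51 at day 30.

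The F-class cells of the HDACi series did not match the primary F-class clones in every member. At 0 h Hdac5 stood at 10.86 and 10.87, above the highest primary F-class clone at 9.44, Hdac11 at 6.90 and 6.89, where the clones were below detection, and Hdac6 at 8.77 and 9.20 against 7.84 in the highest clone. Hdac10, at 6.73 and 6.78, lay below the lowest clone at 7.57. Hdac7, at 5.39 and 5.56, lay near the edge of detection in both. These arrays were deposited in different forms and no test was made across them.

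The Tet-Myc lines carry a doxycycline-controlled Myc, and 48 h without doxycycline was compared with its presence. Of the 10 members 1 fell and 0 rose, against 15.3% of all genes (7.38% higher and 7.92% lower). Hdac10 fell from 8.00 to 6.53 in line1 and from 7.22 to 6.78 in line2, a mean fall of 1.94-fold (-0.96, SE 0.26, limma adjusted p = 0.0449). The call ended without either array taken after withdrawal or without line1 on doxycycline. It also ended under median scaling, with no detection filter and in a fit of only the groups compared.

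Because both arrays of a line come from the same cells, a fit with the line as a block was also made, and 3 members passed in it. Hdac10 was again lower (adjusted p = 0.0396 with the block), Hdac11 was lower and Hdac1 higher. Hdac11 went from 6.45 to 5.37, not detected, in line1 and from 8.13 to 6.37 in line2, a change of -1.42 with an adjusted p of 0.113 without the block and 0.00824 with it. Hdac1 went from 10.84 to 11.54 and from 10.95 to 11.41, a change of 0.58 with an adjusted p of 0.0535 without the block and 0.0295 with it. All genes called numbered 1553 without the block and 2553 with it.

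The lines moved in opposite directions in the class IIa genes and Hdac6. Hdac7 changed by 1.30 in line1 and by -0.73 in line2, Hdac5 by 0.97 and -0.19, Hdac4 by 0.49 and -0.08 and Hdac6 by 0.53 and -0.22 on the log2 scale. None of these 4 genes passed the test with or without the block. The mean of the pluripotency markers was 9.22 to 9.48 with doxycycline and 10.76 to 11.40 without it.

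Among genes that work with the deacetylases, some rose and some fell over 48 h of HDACi. The lists hold measured genes by role, and their counts at 48 h against 0 h stand beside a median of 0.02 over all genes, of which 14.2% rose and 14.5% fell. Of 25 corepressor complex partners 4 rose and 1 fell (median 0.08). Mta3, a NuRD subunit, rose 10.9-fold, from 10.07 and 9.00 to 12.97 and 12.99 (adjusted p = 0.00271), and the NuRD subunit Mbd3 rose 1.89-fold (adjusted p = 0.00315). Hmg20b, a CoREST component, fell 2.56-fold, from 10.52 and 10.53 to 9.21 and 9.14 (adjusted p = 0.000620). Between the classes of clone, Mta3 was also 3.03-fold lower in the F-class (adjusted p = 9.02e-08), where 3 of the 25 partners were higher and 1 lower.

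Of 19 partners and kinases of the class IIa enzymes 3 rose and 3 fell (median -0.17). Mef2c, a transcription factor that class IIa enzymes bind, fell 5.53-fold, from 10.69 and 10.31 to 8.23 and 7.83 (adjusted p = 0.00907), and Mef2a fell 2.14-fold (adjusted p = 0.00516). Sik1, a salt-inducible kinase that phosphorylates class IIa enzymes, rose 3.06-fold (adjusted p = 0.0411). Sfn, the 14-3-3 sigma gene, was not detected at 0 h (4.89 and 4.52) and read 8.93 and 8.86 at 48 h, at least 11.2-fold higher (adjusted p = 0.00342). In F-class clones against fibroblasts the kinase gene Camk1 was 31.1-fold lower (adjusted p = 1.19e-13) and the protein kinase D gene Prkd2 4.84-fold lower (adjusted p = 1.66e-08), with 6 of the 19 higher and 8 lower.

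Acetyltransferases, which add the groups that the deacetylases remove, had 4 of 11 genes higher and 0 lower at 48 h (median 0.36), beside 14.2% and 14.5% of all genes. Ncoa1 rose 3.35-fold (adjusted p = 0.0133) and Kat6b 2.71-fold (adjusted p = 0.00935). Between the classes of clone, where 14.1% of all genes were higher and 10.6% lower in the F-class, 2 of 13 acetyltransferases were higher and 3 lower in F-class clones, Ncoa1 among the latter (1.60-fold, adjusted p = 0.0131). None of 6 sirtuins, the NAD-dependent class III deacetylases, and none of 10 acetyl-lysine readers passed at 48 h. In F-class clones 3 of 6 sirtuins were higher than in C-class clones, among them the mitochondrial Sirt5 (1.69-fold, adjusted p = 0.00215) and Sirt3 (1.45-fold, adjusted p = 0.000218), and 4 of 10 readers were higher, among them Mllt3 (1.93-fold, adjusted p = 0.00498).

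Genes that textbooks name as responding to deacetylase inhibitors gave 1 higher and 2 lower of 8 (median 0.11). The list mixes genes that such drugs commonly raise with genes that they commonly lower, so its counts and medians give no direction of response. Cdkn1a, the cell cycle inhibitor p21, fell 11.1-fold, from 12.07 and 12.19 at 0 h through 10.64 and 10.58 at 24 h to 9.19 and 8.12 at 48 h (adjusted p = 0.000521). Ccnd1, the cyclin D1 gene, fell 8.64-fold (adjusted p = 0.000620), and Tyms, the thymidylate synthase gene, rose 1.68-fold (adjusted p = 0.0302). All 3 list members that passed are named here. In the Tet-Myc lines the list had 0 of 8 members called by limma.

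Between F-class clones and fibroblasts 31.5% of all genes were higher and 27.2% lower, with a median of 0.10. In F-class clones 9 of the 25 complex partners were higher and 2 lower (median 0.18), with the Sin3 subunit gene Sap30 5.02-fold higher (adjusted p = 7.26e-12) and the CoREST gene Rcor2 2.38-fold higher, and with Hmg20b 1.51-fold and the NCoR complex gene Tbl1x 1.39-fold lower. Of 13 acetyltransferases 4 were higher and 3 lower (median 0.03). Hat1 was 3.20-fold and Kat2a 2.47-fold higher, and Ncoa1 was 3.30-fold and Kat2b 1.97-fold lower. Of 10 readers 5 were higher and 1 lower (median 0.58), with Baz2a 3.67-fold and Mllt3 2.95-fold higher and Brd2 1.27-fold lower. Of 6 sirtuins 1, Sirt2, was lower (1.68-fold, list median 0.08). Among the class IIa partners (median 0.26) Sfn was at least 3.97-fold higher, with no detection in fibroblasts, and the 14-3-3 epsilon gene Ywhae 1.98-fold higher. Of the 8 response genes 6 were higher and 1 lower (median 0.76), with Clu 4.21-fold and Ccnd1 2.33-fold higher and Txnip 5.12-fold lower.

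Between the classes of clone the median over all genes was 0.03. Rcor2 was 1.49-fold and the NuRD gene Mta1 1.35-fold higher in F-class clones (list median 0.07). Naa60 was 1.30-fold and Kat2a 1.28-fold higher and Kat2b 1.51-fold lower (list median -0.01). Mllt1 was 1.44-fold higher (reader median 0.25, sirtuin median 0.12). Of the 19 class IIa partners 3 were higher and 5 lower (median -0.05), with Prkd1 1.77-fold and Camk2g 1.28-fold higher, and Prkd2 1.98-fold and Sfn 11.2-fold lower (adjusted p = 1.40e-06 for Sfn). Of the response genes Myc was 1.50-fold higher and none was lower (median 0.08). The clones were made with a c-Myc transgene kept on by doxycycline, and whether the Myc probe also reads it was not tested.

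Genes whose pattern was most like that of a member were sought over 17 group means among 8657 genes, for the 3 members that varied most among those detected on at least 26 arrays. For Hdac7 they were Frmd6, Vegfd and Snx33, with Pearson correlations of 0.939, 0.934 and 0.929. For Hdac6 they were Rnf5 (0.912), Fcho1 (0.896) and Pik3cb (0.890), and for Hdac5 they were Ypel3 (0.896), Wipi2 (0.876) and Ubap1 (0.874). The means share arrays of very unequal number, and these correlations only describe them. Among the members detected on at least 26 arrays, which leaves out Hdac11, the most opposed pair was Hdac1 and Hdac7, at -0.55.

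Hdac9, the remaining class IIa gene and not among the 10, was detected on 36 of 51 arrays. It was detected on neither fibroblast array and neither iPSC array, and it read 5.73, 6.06 and 6.21 as lowest, median and highest in F-class clones. F-class clones were at least 1.42-fold higher than fibroblasts (adjusted p = 2.49e-05), and on the HDACi arrays Hdac9 lay between 5.35 and 5.90 with no call.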

How the data were processed

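Bead intensities and detection p-values of 51 arrays were deposited by the authors as unnormalized tables, per the file headers, together with the authors' scaled intensities, used as an alternative. The labels give no scanner software, and no genome build is given in the sources used here. Intensities were background-corrected from the detection p-values and quantile-normalized with neqc (offset 16) in limma 3.58.1 under R 4.3.3, and log2 values were fitted with lmFit and eBayes. Of 25697 probes 23978 had 1 gene symbol. The brightest probe stood for a gene, and a gene entered a fit when 2 or more of its arrays detected it. The share of probes detected on an array ran from 46.6% to 53.4%, and median intensity ran from 108.7 to 212.1. The number of arrays limits the precision. No columns were left unused (0).

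The members, the gene lists and the tests were chosen with earlier results of these data known. The text accounts for all members, names from each list up to 2 called genes with the largest rise and up to 2 with the largest fall in each of 3 comparisons, and the 3 genes most like each of 3 variable members. Same-numbered Tet-Myc arrays are the same cell line, and their deviations correlated at 0.49 across 8666 genes. Same-numbered HDACi arrays correlated at 0.10 to 0.23 between times, with 2 numbers, so the block is given beside the calls it changed. For a group undetected on every array, a fold is a bound on background-corrected levels, and differences without background correction can be smaller than it. In simulated data with independent noise and no array or line effects, the fits returned at the median changes near those put in. A linear fit does so by construction, so this does not show how far calls on few arrays hold. Alternatives changed the normalization, filter, probe rule, moderation, groups fitted, number format, block and arrays included.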

Additional observations from a re-analysis of the deposited data

Results flagged for a closer look

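Among groups of 4 to 10 arrays, 1 level stood apart. Hdac7 in F-class clone 27 read 5.50, and the next highest F-class clone read 4.92, a gap of 0.798 of the range of the group. For a single gene, chance sets 1 such array apart in about 1 of 20 groups. All 10 members were examined, so 1 such array among them is less unusual than that rate. The gene was not detected on any of the 6 F-class arrays, clone 27 included, and without clone 27 the difference from C-class clones was -0.65 (limma adjusted p = 0.0259).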

How the results depend on the processing

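Over 1921 results of single genes under an alternative, 1718 kept their direction and side of the threshold, 76 lost a call, 65 gained one and 62 changed sign, 0 of the last in results called as reported. Numbers of the 10 members called that moved by over 1.5 times were the following. Without background correction 1 was called for 48 h against 24 h of HDACi (2 as reported) and 2 for Tet-Myc (1 as reported), and the same held with the authors' scaled values and with the mean of all probes, which also left 3 for C-class clones against ESC (5). Median scaling gave 7 for F-class clones against fibroblasts (4) and 0 for Tet-Myc. With no detection filter 1 was called at 48 h against 24 h, 1 at 48 h against 0 h (3) and 0 for Tet-Myc. A stricter detection filter gave 2 for F-class and 3 for C-class clones against fibroblasts (5) and 2 for Tet-Myc. Fitting only the groups compared gave 1 at 24 h, 4 for 48 h against 24 h, 5 at 48 h, 3 for the second day minus the first and 0 for Tet-Myc. Number format as a term left 3 for C-class clones against ESC and 3 against iPSC (6). The replicate block gave 4 for 48 h against 24 h and 3 for Tet-Myc. At 48 h against 0 h 2 were called without background correction, with the authors' scaled values and with the mean of all probes, and number format as a term left 4 for F-class clones against iPSC (6). HDACi replicates number only 1 and 2, with deviations correlated at 0.10 to 0.23 between times, so whether they pair the arrays is not settled. Arrays were left out 1 at a time from every group fitted except the C-class, so the ranges below do not cover the C-class arrays.

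Leaving out 1 array gave 1 to 4 members for F-class against C-class, 4 to 6 and 5 to 5 for F-class and C-class against fibroblasts, 5 to 7 and 3 to 5 against ESC, 6 to 7 and 5 to 6 against iPSC, 0 to 1 for iPSC against ESC, 6 to 8 for both against fibroblasts, 0 to 0 at 24 h, 0 to 0 for 48 h against 24 h, 0 to 1 at 48 h, 0 to 0 for the second day minus the first and 0 to 2 for Tet-Myc.

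Signs changed under these settings. Median scaling gave 0.057 for Hdac1 in F-class against C-class clones, -0.093 for Hdac8 in F-class and -0.030 for Hdac10 in C-class clones against fibroblasts, and 0.095 for Hdac3 in iPSC against ESC. In HDACi it gave 0.035, 0.091 and 0.011 for Hdac1, Hdac2 and Hdac3 at 24 h, -0.046 for Hdac6 at 48 h against 24 h, -0.12 for Hdac8 at 48 h, and -0.19 and -0.19 for Hdac1 and Hdac3 in the second day minus the first. The mean of probes gave 0.42 and 0.75 for Hdac6 in F-class and C-class clones against iPSC, and number format as a term 0.073 and 0.46. That term gave -0.021 and -0.061 for Hdac3 against ESC, -0.19 and -0.23 for Hdac3 against iPSC, -0.18 for Hdac10 in C-class clones against fibroblasts, 0.21 for Hdac4 in C-class clones against iPSC, and 0.17 and 0.085 for Hdac3 and Hdac10 in iPSC against ESC.

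Ranges with 1 array left out that cross 0 were, against fibroblasts, -0.45 to 0.17 and -0.49 to 0.13 for Hdac3 and -0.12 to 0.38 and -0.26 to 0.24 for Hdac8 in F-class and C-class clones. Between the classes they were -0.050 to 0.048 for Hdac2 and -0.044 to 0.053 for Hdac11. In C-class clones they were -0.40 to 0.21 for Hdac4 and -0.20 to 0.069 for Hdac6 against iPSC and -0.014 to 0.42 for Hdac3 against ESC. In iPSC against ESC they were -0.024 to 0.59 for Hdac4, -0.15 to 0.18 for Hdac1, -0.31 to 0.12 for Hdac3 and -0.89 to 0.36 for Hdac10. At 24 h they were -0.20 to 0.061 for Hdac1, -0.11 to 0.011 for Hdac2 and -0.000228 to 0.091 for Hdac5. At 48 h against 24 h they were -0.20 to 0.080 for Hdac1, -0.20 to 0.029 for Hdac2, -0.0053 to 0.45 for Hdac7 and -0.015 to 0.17 for Hdac6. At 48 h against 0 h they were -0.27 to 0.011 for Hdac1 and -0.21 to 0.23 for Hdac8, and for the second day minus the first -0.25 to 0.27 for Hdac1 and -0.15 to 0.077 for Hdac2. In Tet-Myc they were -0.15 to 0.93 for Hdac5, -0.32 to 0.89 for Hdac7, -0.13 to 0.55 for Hdac4 and -0.33 to 0.64 for Hdac6. The causes were not tested.

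Genes called over the whole array, in the fit of only the groups compared and as reported, were 2 and 900 for iPSC against ESC, 3421 and 5706 for both against fibroblasts, 1784 and 212 at 24 h, 3702 and 1688 for 48 h against 24 h, 4747 and 2907 at 48 h, 1997 and 298 for the second day minus the first, and 0 and 1553 for Tet-Myc. Number format as a term gave 2707 (5882) for F-class and 1864 (5797) for C-class clones against iPSC and 400 for iPSC against ESC. The stricter filter gave 587 for iPSC against ESC and 152 for the second day minus the first. The replicate block gave 523 at 24 h, 2545 for 48 h against 24 h, 800 for the second day minus the first and 2553 for Tet-Myc. Median scaling moved the share of calls that were higher from 56.9% to 71.6% in F-class against C-class clones.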
